A study of Mus musculus with 16 samples.

Results

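The tumor effect in trained muscle was examined by comparing the gastrocnemius, a hind limb muscle, of the tumor-bearing plus exercise group (TE) with that of the exercise group (E). The 4 E and the 4 TE libraries were chosen by their treatment labels, and they make up 8 of the 16 libraries of the study. All mice were wild type male BALB/c mice bought at 8 weeks of age and allotted at random to groups of 12. TE mice were injected in the left hind limb region with cells of CT26, a mouse colon carcinoma line that grows under the skin of this strain. E mice were anesthetized likewise and given the same volume of saline there. Both groups then ran on a treadmill at 14 m/min for 60 min on 6 days a week for 4 weeks. The remaining groups were untrained mice without (C) and with (T) the tumor, which stood on a still treadmill. Not every inoculated TE mouse formed a tumor, tumor size by mouse is not given in the labels, and the side of the sampled muscle is not stated. The E libraries held 36149281 to 37635741 counts and the TE libraries 36621989 to 37210488, so that depth was nearly equal. Levels are given as CPM, the counts scaled to a common library size with TMM factors, and changes as the log2 fold change of TE minus E with its standard error (SE).

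A growing tumor can act on distant muscle through the blood. Cytokines of the interleukin-6 family bind receptors that pair with gp130, the product of Il6st, and activate JAK kinases and the transcription factor STAT3. Interferons also signal through JAK kinases, and many of their target genes carry GAS or ISRE elements. The muscle sample also holds fibroblasts and tendon cells, which make the collagen-rich matrix between fibers, and blood, which brings the transcripts of reticulocytes and leukocytes. In whole muscle, fewer cells of a type and less RNA per cell cannot be told apart.

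Of 14749 tested genes, 34 (0.231%) passed an adjusted p-value of 0.05 in TE vs E. In TE, 17 genes were higher and 17 were lower, each 0.115% of the tested genes. The higher genes were led by globins and the heme enzyme gene Alas2, by interferon-inducible GTPases, and by Lrg1 and Osmr. The lower genes were led by Serpinf1, Islr and Igfbp6, by collagen VI and V chains and by the tendon genes Tnmd, Fmod and Kera. With the further requirement of a fold change above 2 or below 0.5, 11 genes (0.0746%) were DEGs, 7 higher (0.0475%) and 4 lower (0.0271%). The absolute log2 fold changes of the 34 genes ran from 0.46 to 1.90, while the median log2 fold change of all tested genes was 0.0029. The 4 TE values did not overlap the 4 E values for any of the 34 genes. Over all tested genes, TE lay wholly above E in 2.68% and wholly below E in 3.95%. At an unadjusted p-value under 0.05 there were 1361 genes (9.23%), 546 higher (3.7%) and 815 lower (5.53%).

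**Figure D1:**
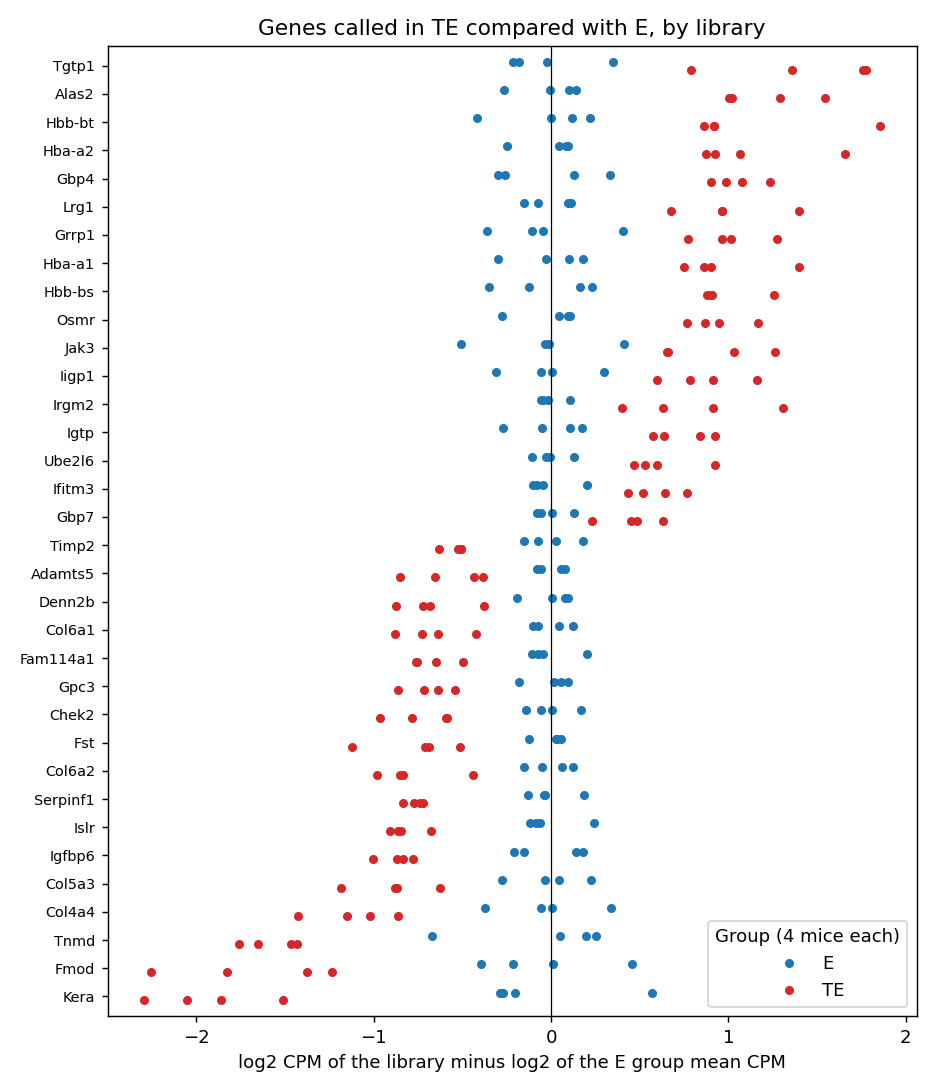
Each point is 1 mouse, plotted as its log2 CPM minus the log2 of the mean CPM of the 4 E mice for the 34 genes called in TE vs E. Blue points are E and red points are TE, and for every gene the red points lie to one side of the blue points.

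The promoters of the higher genes were searched for sequences known to bind STAT proteins and interferon regulatory factors. In RefSeq, 30 of the 34 genes had a promoter window, and the 250 bases before the transcription start in the first window listed were searched on both strands. The letters TTCNNNGAA, the core of a STAT or GAS site, were found in 691 of 11577 tested genes with a window (5.97%). They were found in 4 of 15 higher genes (26.7%) and in 0 of 15 lower genes. The core of an ISRE, 2 copies of GAAA set 2 bases apart, was found in 289 of the 11577 windows (2.5%), in 4 of 15 higher genes and in 0 of 15 lower genes. This second motif was chosen after the values were seen. The same 4 genes held both motifs, and all 4 encode interferon-inducible GTPases. A strict glucocorticoid element was found in 0 of the 11577 windows. The 4 stretches are shown because the motifs lie close together in each. Capitals mark the motif letters, and the positions are on GRCm38.p6, while all other positions in the text are on GRCm39.
Igtp, chr11:58199491-58199551, plus strand: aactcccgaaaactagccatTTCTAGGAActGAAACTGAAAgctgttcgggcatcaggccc
Irgm2, chr11:58214882-58214942, plus strand: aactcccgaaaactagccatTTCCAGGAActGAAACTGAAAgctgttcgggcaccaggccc
Tgtp1, chr11:48992294-48992354, minus strand: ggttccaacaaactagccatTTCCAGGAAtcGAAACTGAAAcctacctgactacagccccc
Gbp7, chr3:142530210-142530312, plus strand: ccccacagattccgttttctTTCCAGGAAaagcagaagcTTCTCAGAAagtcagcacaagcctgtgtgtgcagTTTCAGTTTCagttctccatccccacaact

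In Igtp, Irgm2 and Tgtp1 the STAT motif was followed by the ISRE core, and the letters of the motifs did not overlap. In Gbp7, 2 STAT motifs were followed by an ISRE core on the opposite strand. Igtp and Irgm2 are neighbors, and their stretches differed at 2 of 61 bases, whereas those of Igtp and Tgtp1 differed at 22 of 61. A match of letters is a description of the sequence and was not measured as a binding site. Lrg1 and Osmr, which also rose, held neither set of letters in their windows, and Gbp4 had no window.

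The 4 globin genes and Alas2 were higher in TE. Alas2 (chrX:149330371-149353634), which encodes the first enzyme of heme synthesis in red cell precursors, had the smallest adjusted p-value of all genes. It was at 8.38, 11.1, 10.8 and 10.01 CPM in the E mice and at 24.6, 20.5, 20.2 and 29.4 CPM in the TE mice. The lowest TE mouse was thus well above the highest E mouse, and the log2 fold change was 1.23 (SE 0.13, adjusted p = 0.000775). Hbb-bs, a β-globin gene, was at 143.0, 204.1, 214.0 and 167.3 CPM in E and at 334.4, 341.4, 339.9 and 435.1 CPM in TE. TE replicates 1 to 3 were nearly alike and TE replicate 4 stood above them, with a log2 fold change of 0.99 (SE 0.13, adjusted p = 0.00425) between the groups. The other globin genes, Hba-a1 (1.00), Hba-a2 (1.17) and Hbb-bt (1.20), were called as well. Among them, TE replicate 4 was again the highest TE mouse, with 175.9 CPM of Hba-a1, 48.4 CPM of Hba-a2 and 95.8 CPM of Hbb-bt. Without this mouse the log2 fold change of Hbb-bt was 0.91 and that of Alas2 was 1.12, and both were still called. Globin copies are nearly identical, so reads shared by Hba-a1 and Hba-a2, or by Hbb-bs and Hbb-bt, may have been split or dropped in counting.

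Of 18 genes on the erythroid and heme list, 11 were tested, 5 were called higher and 0 were called lower. Over all tested genes, 0.115% were called higher. All 11 had a log2 fold change above 0, with a median of 1.00 against 0.0029 for all genes. All 18 listed genes, tested or not, summed to 516.0 to 625.0 CPM in E and 842.3 to 1080 CPM in TE. Fech, which inserts iron into heme and is used by muscle too, was at 158.5 ± 5.95 CPM (SD, n = 4) in E and 164.9 ± 7.89 CPM in TE (adjusted p = 0.821). Slc4a1, the red cell anion exchanger, was low in both groups but had the higher mean in TE. It was at 0.10 ± 0.080 CPM in E and 0.36 ± 0.045 CPM in TE and was not called (adjusted p = 0.428). The globins thus moved together with Alas2, while the groups overlapped for Fech. The part of blood left in the muscle in these values was not tested.

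Genes of the interferon-inducible GTPases, which restrict pathogens inside cells, formed the next group. Gbp4 (chr5:105263633-105287609) was at 33.5, 24.9, 25.6 and 38.6 CPM in E and at 60.6, 72.0, 57.3 and 64.6 CPM in TE. Every TE mouse was well above every E mouse, with a log2 fold change of 1.05 (SE 0.15, adjusted p = 0.00699). Tgtp1 was at 3.71, 2.57, 2.51 and 2.86 CPM in E and at 5.02, 9.95, 7.46 and 9.85 CPM in TE. Its log2 fold change of 1.47 (SE 0.23, adjusted p = 0.00799) was the highest of the called genes, although TE replicate 1 lay nearer to the E mice than the others did. Igtp was at 10.6, 9.09, 7.80 and 10.2 CPM in E and at 16.8, 17.9, 14.01 and 14.6 CPM in TE (log2 fold change 0.75, SE 0.11, adjusted p = 0.00699). Iigp1 (0.88), Irgm2 (0.85) and Gbp7 (0.46) were called too. Irgm2 ranged from 14.1 CPM in replicate 3 to 26.5 CPM in replicate 1 of TE, against 10.3 to 11.5 CPM in E. The gene models of Igtp (chr11:58089840-58098417) and Irgm2 (chr11:58090444-58113615) overlap on the same strand, and Tgtp1 has the near-identical copy Tgtp2, so their separate counts are uncertain.

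Of 17 tested genes on the GTPase list, 6 were called higher, against 0.115% of all tested genes, and 0 were called lower. TE lay wholly above E in 8, against 2.68% of all tested genes. The median log2 fold change of the list was 0.59. All 18 listed genes, tested or not, summed to 235.4 to 289.7 CPM in E and 322.7 to 363.2 CPM in TE. The members not called included Tgtp2 (log2 fold change 1.06, adjusted p = 0.0998) and Gbp5 (0.59, adjusted p = 0.0962). DESeq2 on the 16 libraries called 8 members of this list higher, Tgtp2 and Gbp5 among them. Gbp10 and Ifi202b had values below 0, at -0.44 and -0.39, with adjusted p-values of 0.63 and 0.756. Ifi202b is interferon-inducible and stood on the list, but it does not encode a GTPase. MHC class I and immunoproteasome genes, which cut and display peptides on the cell surface, all had log2 fold changes above 0. In this list 0 of 18 were called, 4 were called by DESeq2, and the median was 0.40. At an unadjusted p-value under 0.05, 15 were higher, against 3.7% of all tested genes. TE replicate 4 held the highest summed level of the list, 985.6 CPM, against 733.2 to 835.0 CPM in the other TE mice. Without this mouse the median was 0.31. H2-K1, a class I heavy chain, was at 36.4 to 55.1 CPM in E and at 58.5 to 77.5 CPM in TE (adjusted p = 0.0919). B2m, the class I light chain, overlapped between the groups, with 203.4 to 274.6 CPM in E and 254.6 to 350.6 CPM in TE. The type I interferon list had 0 of 26 called and a median of 0.19. Ifitm3, which blocks viral entry, and Ube2l6, the conjugating enzyme for ISG15, were called outside these lists. Ifitm3 rose from 63.4 ± 6.51 to 95.8 ± 9.69 CPM (log2 fold change 0.60, adjusted p = 0.0124), and Ube2l6 from 7.75 to 9.12 CPM in the E mice to 11.5 to 15.8 CPM in the TE mice (0.64, adjusted p = 0.0149).

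**Figure D2:**
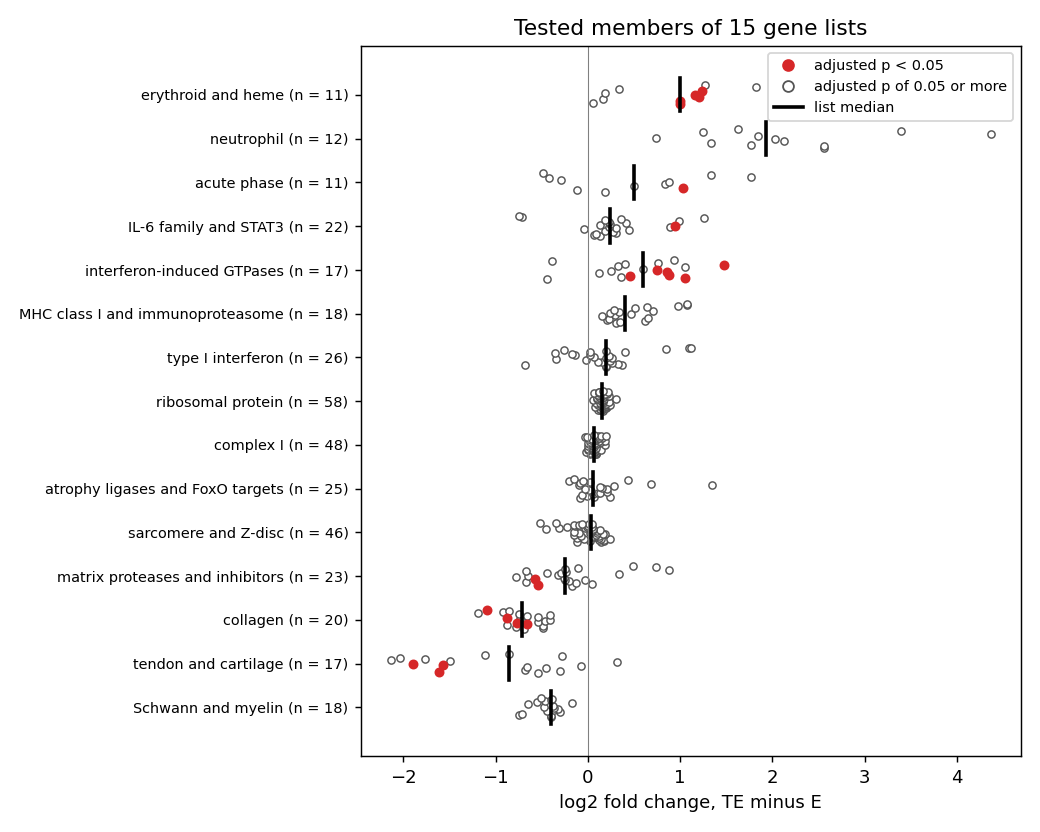
Each point is 1 tested gene, plotted by its log2 fold change of TE minus E within 15 gene lists, with red points for adjusted p-values under 0.05 and black bars for list medians. The erythroid and GTPase lists hold 5 and 6 red points above 0, and the collagen, tendon and protease lists hold 4, 3 and 2 red points below 0.

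Lrg1 and Osmr stood for the acute phase and the interleukin-6 family. Lrg1 (chr17:56426283-56429001), a secreted acute phase glycoprotein, was at 13.2, 14.9, 12.6 and 15.1 CPM in E and at 22.3, 27.2, 27.2 and 36.8 CPM in TE. The E mice were close to each other and the TE mice were spread over a wider range (log2 fold change 1.03, SE 0.14, adjusted p = 0.00425). Osmr, the receptor chain for oncostatin M that pairs with gp130, was at 13.5, 17.4, 16.8 and 17.5 CPM in E and at 27.7, 29.7, 31.4 and 36.6 CPM in TE. All TE mice exceeded all E mice by a clear margin (log2 fold change 0.94, SE 0.15, adjusted p = 0.00699). Jak3, a kinase of leukocyte cytokine receptors, rose from 5.40 ± 1.39 to 10.3 ± 2.16 CPM (0.93, adjusted p = 0.0452), and Grrp1 rose from 4.23 to 7.21 CPM in the E mice to 9.29 to 13.1 CPM in the TE mice (1.02, adjusted p = 0.0452).

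The rest of these pathways was mostly not called. Of 22 tested genes of the IL-6 family and STAT3 list, Osmr was the 1 called, and the median was 0.24. Stat3 was at 58.3, 68.8, 64.7 and 64.0 CPM in E and at 78.8, 78.6, 81.5 and 77.7 CPM in TE. These groups did not overlap, but the log2 fold change of 0.31 (SE 0.088) had an adjusted p-value of 0.198. Socs3, the feedback inhibitor of STAT3 signaling, was at 6.24 ± 4.05 and 7.07 ± 3.69 CPM (adjusted p = 0.922), and Il6st was at 187.5 ± 18.2 and 196.0 ± 16.4 CPM (adjusted p = 0.893). In the acute phase list, Lrg1 was the 1 called of 11 tested genes, with a list median of 0.49. This median was unstable, from 0.10 without TE replicate 4 to 1.04 without E replicate 2, and 11 to 13 members were tested in the fits that left out 1 library. Serpina3n was at 6.47 ± 2.70 and 11.6 ± 4.94 CPM (adjusted p = 0.482), and C3 at 82.5 ± 21.7 and 93.6 ± 19.2 CPM (adjusted p = 0.919).

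Neutrophil genes had large differences at low counts, and their calls depended on the fit. S100a8, a subunit of the alarmin calprotectin, was at 0.26, 0.38, 0.20 and 1.27 CPM in E and at 2.25, 4.07, 2.27 and 3.91 CPM in TE. Its partner S100a9 was at 0.26, 2.21, 0.99 and 2.43 CPM in E and at 6.46, 8.41, 9.04 and 10.8 CPM in TE. Neither pair of groups overlapped, and both log2 fold changes were 2.56, with adjusted p-values of 0.122 for S100a8 and 0.0961 for S100a9. Of 12 tested neutrophil genes, 0 were called by edgeR on the 16 libraries. At an unadjusted p-value under 0.05, 7 were higher, against 3.7% of all tested genes. When E and TE were fitted alone, edgeR called Retnlg and S100a9 higher, and DESeq2 on the 16 libraries called 5 of these genes. All 12 were above 0, with a median of 1.94, and TE lay wholly above E in 8, against 2.68% of all tested genes. All 24 listed genes, tested or not, summed to 3.34 to 7.59 CPM in E and 15.7 to 32.1 CPM in TE. This is a small amount beside the 123000 to 146000 CPM of the muscle fiber identity genes. In E and TE alike, the tumor cell list summed to 6.77 to 13.9 CPM.

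Of the collagen genes, Col6a1, Col6a2, Col5a3 and Col4a4 fell in TE. Col6a2 (chr10:76429660-76459549), a chain of the collagen VI that surrounds muscle fibers, was at 100.2, 121.7, 116.3 and 107.8 CPM in E and at 82.0, 62.5, 56.5 and 61.8 CPM in TE. Col6a1, its partner chain and chromosomal neighbor, was at 121.8, 142.5, 134.7 and 124.0 CPM in E and at 97.4, 84.1, 71.1 and 78.9 CPM in TE. TE replicate 1 was the highest TE mouse for both genes and still lay below every E mouse. The log2 fold changes were -0.76 (SE 0.11) and -0.66 (SE 0.10), both with an adjusted p-value of 0.00699. Col5a3 of the fibrillar collagen V fell from 34.6 ± 4.89 to 18.8 ± 2.93 CPM (log2 fold change -0.88, adjusted p = 0.00913). Col4a4 of basement membrane collagen fell from 3.50 ± 0.71 to 1.63 ± 0.26 CPM (-1.10, adjusted p = 0.0407).

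Of 20 tested collagen genes, 4 were called lower, against 0.115% of all tested genes, and all 20 were below 0. Against 3.95% of all tested genes, TE lay wholly below E in 14 of the collagen genes. Their median log2 fold change was -0.72, and their summed level was 1712 to 2344 CPM in E and 1217 to 1536 CPM in TE. The 4 most abundant chains in CPM, Col3a1, Col4a1, Col1a2 and Col4a2, were not called. Col3a1 was at 329.1, 469.3, 427.7 and 364.0 CPM in E and at 311.0, 241.6, 206.2 and 226.4 CPM in TE (adjusted p = 0.267). Col1a2 was at 239.3, 347.8, 294.0 and 264.0 CPM in E and at 179.5, 166.6, 153.8 and 168.8 CPM in TE (adjusted p = 0.164). Both lay wholly below E in TE. The basement membrane chains Col4a1, at 334.8 ± 53.0 and 239.2 ± 33.8 CPM (adjusted p = 0.403), and Col4a2, at 232.1 ± 28.5 and 165.6 ± 23.3 CPM (adjusted p = 0.334), overlapped between the groups. When E and TE were fitted alone, 8 collagen genes were called lower, namely Col1a1, Col1a2, Col4a4, Col5a1, Col5a3, Col6a1, Col6a2 and Col12a1.

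The largest decreases among the called genes were those of tendon and cartilage genes. Kera, which encodes the small proteoglycan keratocan, was at 5.02, 9.06, 5.32 and 5.08 CPM in E and at 2.15, 1.48, 1.25 and 1.69 CPM in TE. Fmod, fibromodulin, which binds collagen fibrils, was at 52.8, 95.1, 69.9 and 59.9 CPM in E and at 26.7, 19.6, 14.5 and 29.5 CPM in TE. Tnmd, the tendon marker tenomodulin, was at 6.70, 6.99, 3.67 and 6.05 CPM in E and at 2.12, 1.73, 1.86 and 2.17 CPM in TE. E replicate 2 held the highest value of all 3 genes, and the TE mice lay below every E mouse in each. The log2 fold changes were -1.90 (SE 0.37, adjusted p = 0.0407) for Kera, -1.62 (SE 0.31, adjusted p = 0.0371) for Fmod and -1.57 (SE 0.26, adjusted p = 0.0104) for Tnmd. Without E replicate 2 the log2 fold change of Kera was -1.64 (adjusted p = 0.147) and that of Fmod was -1.43 (adjusted p = 0.121). Of the 16 fits that left out 1 library, Kera lost its call in 11 and Fmod in 9, while the direction was kept in each.

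Of 17 tested genes on this list, 3 were called lower, against 0.115% of all tested genes, and 16 were below 0. TE lay wholly below E in 10, against 3.95% of all tested genes, and the list median was -0.85. All 20 listed genes, tested or not, summed to 216.7 to 347.1 CPM in E and 122.0 to 187.1 CPM in TE. Chad, chondroadherin, was at 3.67 ± 1.15 CPM in E and 0.83 ± 0.19 CPM in TE (log2 fold change -2.13, adjusted p = 0.0908), and Comp was at 3.73 ± 2.26 and 1.32 ± 0.25 CPM (-1.50, adjusted p = 0.0982). DESeq2 on the 16 libraries called 8 members of this list lower, Chad and Comp among them. On E and TE alone, edgeR called 4 lower, and Chad was among them. Scx, the transcription factor of tendon cells, was the member above 0, at 2.29 ± 0.34 and 2.84 ± 0.59 CPM (adjusted p = 0.744). How much tendon was cut out with each muscle is not stated in the sources, and its part in these results was not tested.

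Serpinf1, Islr, Igfbp6 and Gpc3, which belong to none of the lists, were lower as well. Serpinf1, which encodes the antiangiogenic factor PEDF, was at 66.8, 83.2, 71.3 and 71.4 CPM in E and at 44.3, 42.8, 41.1 and 43.9 CPM in TE. The TE mice differed little among themselves, and the log2 fold change was -0.77 (SE 0.10, adjusted p = 0.00425). Islr, a secreted protein of mesenchymal cells, fell from 39.3 ± 4.79 to 22.3 ± 1.57 CPM (-0.82, adjusted p = 0.00699). Igfbp6, which binds insulin-like growth factor II, fell from 51.9 ± 7.11 to 28.4 ± 1.83 CPM (-0.87, adjusted p = 0.00799). Gpc3, a proteoglycan at the cell surface, fell from 11.8 to 14.3 CPM in the E mice to 7.36 to 9.21 CPM in the TE mice (-0.69, adjusted p = 0.0371). Among 23 tested matrix proteases and inhibitors, the inhibitor gene Timp2 (-0.54, adjusted p = 0.00944) and the aggrecanase gene Adamts5 (-0.57, adjusted p = 0.0371) were called lower, with a list median of -0.24. Timp2 was at 135.8 to 171.4 CPM in E and at 97.6 to 106.5 CPM in TE.

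Fst, which encodes the myostatin and activin inhibitor follistatin, was the 1 called gene of 22 tested on the myostatin and activin list. It was at 6.65, 7.53, 7.37 and 7.40 CPM in E and at 4.43, 5.07, 4.49 and 3.32 CPM in TE. All TE mice lay below the E mice (log2 fold change -0.74, SE 0.15, adjusted p = 0.0452), but the call was lost in 14 of the 16 fits that left out 1 library. Gdf10, a ligand of the TGF-β family, was at 4.41, 6.44, 7.47 and 5.02 CPM in E and at 1.60, 1.76, 0.92 and 3.10 CPM in TE (-1.66, adjusted p = 0.0961). Gdf10 was called lower when E and TE were fitted alone and by DESeq2, and in 9 of 26 alternatives in all. Mstn itself was at 118.4 ± 8.54 and 123.4 ± 11.5 CPM (adjusted p = 0.947). The lower genes outside the lists were completed by Chek2, a DNA damage kinase, with -0.72, Denn2b with -0.65 and Fam114a1 with -0.66.

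Of the 47 gene lists described, 8 held a called gene. Genes of muscle atrophy were not called, with 0 of 25 ubiquitin ligase and FoxO genes. At an unadjusted p-value under 0.05, 5 of these were higher and 0 lower, against 3.7% and 5.53% of all tested genes. Their log2 fold changes ran from -0.20 to 1.35. Their median of 0.060 ran from 0.020 without TE replicate 3 to 0.16 without TE replicate 1. Fbxo32, the ligase atrogin-1, was at 832.7, 457.4, 482.1 and 735.1 CPM in E and at 282.1, 790.3, 979.3 and 433.2 CPM in TE. Its groups overlapped fully (log2 fold change -0.013, SE 0.37, adjusted p = 0.996). Trim63, the ligase MuRF1, was at 375.6 ± 98.3 and 391.6 ± 106.7 CPM (adjusted p = 0.964). Sarcomere and Z-disc genes had 0 of 46 called and a median of 0.038, and complex I genes had 0 of 48 called and a median of 0.070. Slow fiber genes had 0 of 15 called and a median of -0.23, with 13 below 0. That median ran from -0.35 without E replicate 2 to -0.13 without E replicate 4. Endothelial genes had 0 of 28 called and a median of 0.0012, and Kdr, the main VEGF receptor, was at 150.4 ± 6.83 and 93.0 ± 23.8 CPM (adjusted p = 0.0757). Angpt2 and Cd200 of this list were called lower when E and TE were fitted alone, and DESeq2 on the 16 libraries called 5 members, Kdr, Angpt2, Cd200, Sele and Selp, of which 2 were higher and 3 lower. The ribosomal protein genes had 0 of 58 called, but all 58 had a log2 fold change above 0, with a median of 0.15. Their highest summed level was that of TE replicate 4, and the median was 0.10 without this mouse. All 18 Schwann and myelin genes were below 0, with 0 called and a median of -0.40, which was -0.14 without E replicate 2 and -0.58 without E replicate 4. In this list, E replicate 2 held 1062 CPM and TE replicate 1 held 395.9 CPM, and the groups overlapped.

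TE replicate 4 differed from the other mice by genes of lymphoid tissue. The lymphocyte and lymph node list summed to 10.3, 11.4 and 11.9 CPM in the other TE mice, to 242.6 CPM in TE replicate 4, and to 16.3 to 68.9 CPM in E. Glycam1, which high endothelial venules of lymph nodes secrete, was at 27.4 CPM in TE replicate 4 and at 0 in the other 3 TE mice. It was at 2.60 and 1.26 CPM in E replicates 1 and 2 and at 0 in the others. Glycam1 thus had a log2 fold change of 2.83 with an adjusted p-value of 0.677, and one of -8.14 without TE replicate 4. Only the direction of the latter can be read, since the remaining TE counts of Glycam1 were all 0. This library also had the largest mean distance to the other 7 libraries, 80.5 against 66.0 to 68.4 on the log2 CPM scale. Without TE replicate 4, 27 genes were called in place of 34, 25 of them shared, and 6 genes in place of 11 were DEGs. The part of lymphoid tissue in the other differences was not tested.

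**Figure D3:**
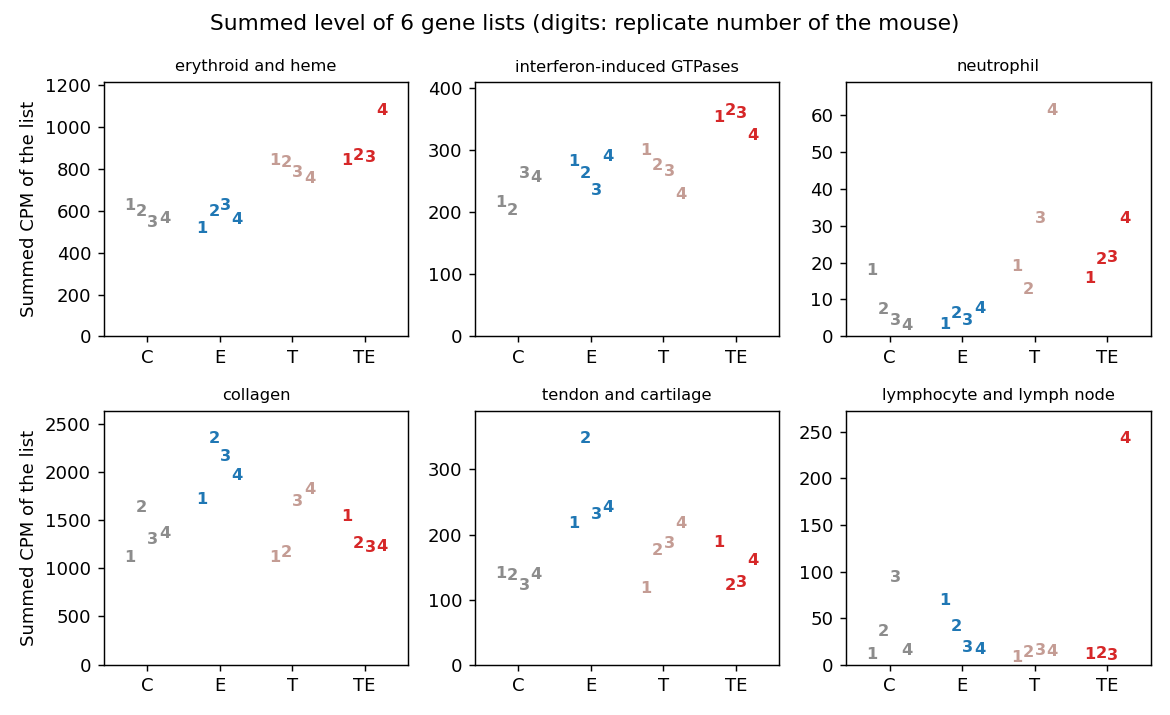
Each digit is the replicate number of 1 mouse, plotted by the summed CPM of a gene list in the C, E, T and TE groups. TE replicate 4 stands alone at 242.6 CPM on the lymphocyte and lymph node panel, and every E mouse lies above every TE mouse on the collagen and tendon panels.

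The whole profiles of the E and TE libraries were compared by their distances. The mean distance between libraries was 63.6 within E, 70.8 within TE and 69.8 between E and TE. The separation, which is the mean distance between groups minus that within groups, was 2.53 (exact permutation test, one-sided p = 0.114, smallest possible p = 0.0286). With each gene scaled to unit variance the separation was 8.21, and on log2(FPKM + 1) it was 2.29, each with the smallest possible p = 0.0286 in the exact permutation test.

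The same tumor comparison in untrained mice, T vs C, called 100 of 14749 genes (0.678%), 76 higher (0.515%) and 24 lower (0.163%), in the fit of all 16 libraries. When each pair of groups was fitted alone, the order of the counts reversed, with 96 genes called in TE vs E and 30 in T vs C, so the counts do not rank the tumor effect in trained and untrained mice. The test of whether the tumor effect differed between trained and untrained mice, the interaction, called 0 genes with edgeR, and the smallest adjusted p-value was 0.389. At an unadjusted p-value under 0.05 the interaction held 1358 genes (9.21%), and limma-voom called 0 genes. DESeq2 called 20 genes, 7 with a higher and 13 with a lower value in trained mice. The smallest adjusted p-value of DESeq2 was that of Glycam1 (0.000248), whose TE counts all came from 1 mouse. Next were those of Gbp5, Mmp14 and Gpnmb, and then those of Dhtkd1, LOC102639683 and Samd4, which tied at 0.0161. The 5 genes with the smallest interaction p-values in edgeR were Gbp5, Mmp14, Samd4, Gatd1 and LOC102639683. Gbp5 had a log2 fold change of 0.59 in TE vs E and -0.45 in T vs C, and Mmp14, a membrane-bound collagenase, had -0.26 and 0.87. Without T replicate 2, Mmp14 was called by edgeR in the interaction (adjusted p = 0.00774).

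Both comparisons called 12 genes, which were 35.3% of the calls in TE vs E and 12% of those in T vs C. In the fits of each pair of groups alone, the shared genes were 9, or 9.38% of the calls in TE vs E and 30% of those in T vs C. The 12 genes were Alas2, Hbb-bs, Hbb-bt, Hba-a1, Lrg1, Osmr, Ifitm3, Jak3 and Grrp1, which were higher with the tumor, and Chek2, Col4a4 and Denn2b, which were lower. Alas2 had a log2 fold change of 1.23 in TE vs E and 1.06 in T vs C, Lrg1 had 1.03 and 1.26, and Osmr had 0.94 and 1.05. The GTPase genes were not called in T vs C. Tgtp1 had 1.47 and 0.20, Gbp4 had 1.05 and 0.32, and Irgm2 had 0.85 and 0.050. The median of the GTPase list was 0.59 in trained and 0.19 in untrained mice, and that of the MHC class I list was 0.40 and 0.018. The collagen list had a median of -0.72 in trained and 0.027 in untrained mice, and the tendon list had -0.85 and 0.25. Some genes that led T vs C were not called in TE vs E when all 16 libraries were fitted. Cd200, which encodes a membrane protein that restrains macrophages, had -0.37 (adjusted p = 0.0962) in trained and -0.78 in untrained mice, Tspan13 had -0.26 (adjusted p = 0.23) and -0.70, and Acer2, a ceramidase gene, had 0.47 (adjusted p = 0.529) and 1.41. Cav1, the main protein of caveolae, had -0.24 (adjusted p = 0.13) and -0.41. In TE vs E, however, Cd200 was called lower by edgeR on E and TE alone and by DESeq2, and Cav1 was called lower by DESeq2. The slow fiber list had a median of -0.23 in trained and 0.43 in untrained mice. Since 0 genes passed the interaction test of edgeR, these differences between trained and untrained mice are not established for single genes by that test. The DESeq2 interaction called Gbp5 (adjusted p = 0.0032) and Gbp7 (0.0389) of the GTPase list, Comp (0.0235) and Chad (0.029) of the tendon list and Col12a1 (0.029) of the collagen list.

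**Figure D4:**
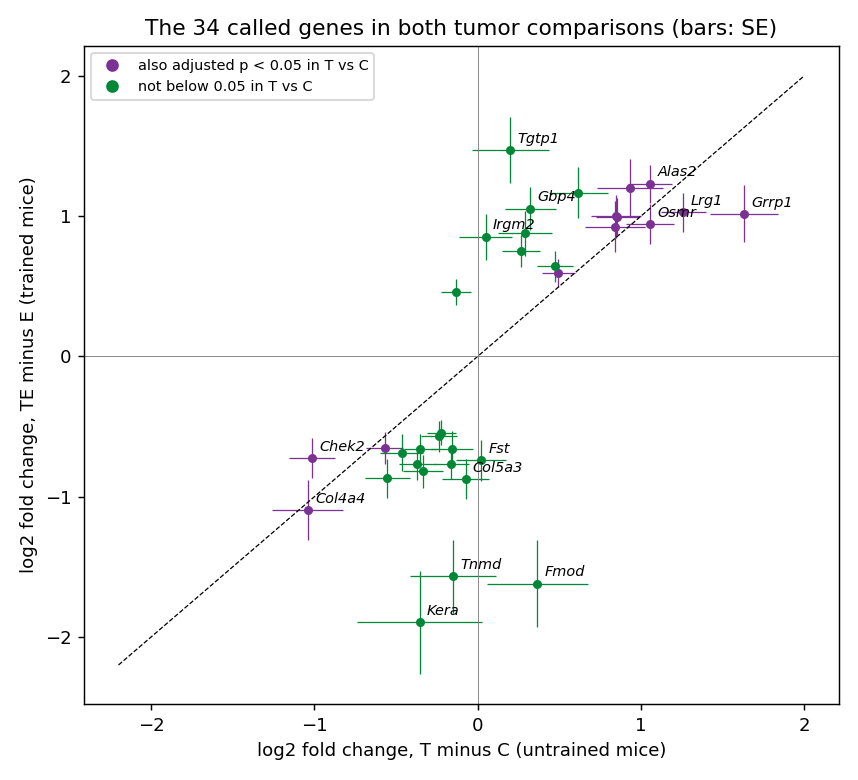
Each point is 1 of the 34 genes called in TE vs E, with its log2 fold change in untrained mice (T minus C) on the horizontal axis and in trained mice (TE minus E) on the vertical axis, and bars of 1 SE. Alas2 lies near the dashed line of equal change at 1.06 and 1.23, whereas Tgtp1 lies at 0.20 and 1.47 and Fmod at 0.37 and -1.62.

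The levels in all 4 groups were set beside these differences. Of the 17 lower genes, 16 had their highest mean in E, and for 12 every E mouse was above every C mouse. The share of all tested genes with E wholly above C was not counted. Fmod was at 69.4 ± 18.5 CPM in E, 22.6 ± 6.81 in TE, 17.5 ± 4.15 in C and 22.5 ± 12.2 in T. Tnmd was at 5.85 ± 1.51 CPM in E, 1.97 ± 0.21 in TE, 1.98 ± 0.47 in C and 1.78 ± 0.66 in T. Fst was at 7.24 ± 0.40 CPM in E, 4.33 ± 0.73 in TE, 3.53 ± 0.40 in C and 3.58 ± 0.62 in T. Over the 17 lower genes, the TE mean was within 1.5-fold of the C mean in 15, and it was below the C mean in 14, the exceptions being Fmod, Kera and Fst. Col6a2, for example, was at 65.7 CPM in TE, 84.6 in C and 65.45 in T. In Col6a2, Igfbp6, Denn2b and Col4a4, E had the highest mean but overlapped C. Denn2b was at 16.3 CPM in E and 14.7 in C, against 10.3 in TE and 9.90 in T. Chek2 had its highest mean in C, with 8.31 ± 0.77 CPM in E, 5.03 ± 0.62 in TE, 9.26 ± 1.67 in C and 4.58 ± 0.57 in T. The summed collagen level was 1113 to 1630 CPM in C and 1110 to 1815 CPM in T, and the summed tendon level was 121.4 to 139.8 CPM in C and 117.0 to 216.4 CPM in T. In the fit of all 16 libraries, E vs C called 13 of 14749 genes, all higher in E, and 7 of them were DEGs. Whether the 17 lower genes were among them is not given here. Because the genes were chosen for a difference between TE and E, a high mean in E is in part a result of that choice.

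Of the 17 higher genes, 13 had their highest mean in TE. The share of all tested genes with TE wholly above C was not counted. Among the 17 higher genes, every TE mouse was above every C mouse for 16. For 7 of them, Hbb-bs, Hbb-bt, Gbp4, Gbp7, Igtp, Iigp1 and Tgtp1, every TE mouse was also above every T mouse. The share of all tested genes with TE wholly above T was likewise not counted. In the edgeR fit of all 16 libraries, TE vs T called 0 of 14749 genes, with a smallest adjusted p-value of 0.0711. A difference between TE and T is thus not established for these genes. Alas2 was at 9.82 ± 1.80 CPM in C and 20.4 ± 0.53 in T, and Lrg1 was at 12.8 ± 0.81 in C and 30.6 ± 5.37 in T. Gbp4 was at 30.6 ± 7.09 CPM in C and 38.3 ± 3.90 in T, against 63.6 ± 6.33 in TE. The 5 erythroid genes also had their highest mean in TE, but Alas2, Hbb-bs, Hbb-bt and Hba-a1 were called in T vs C as well, as were Lrg1 and Osmr. Hba-a2 (adjusted p = 0.121), Gbp4 (adjusted p = 0.359) and Tgtp1 (adjusted p = 0.742) were not called in T vs C. As with the lower genes, the choice of genes by TE vs E in part fixes a high mean in TE.

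**Figure D5:**
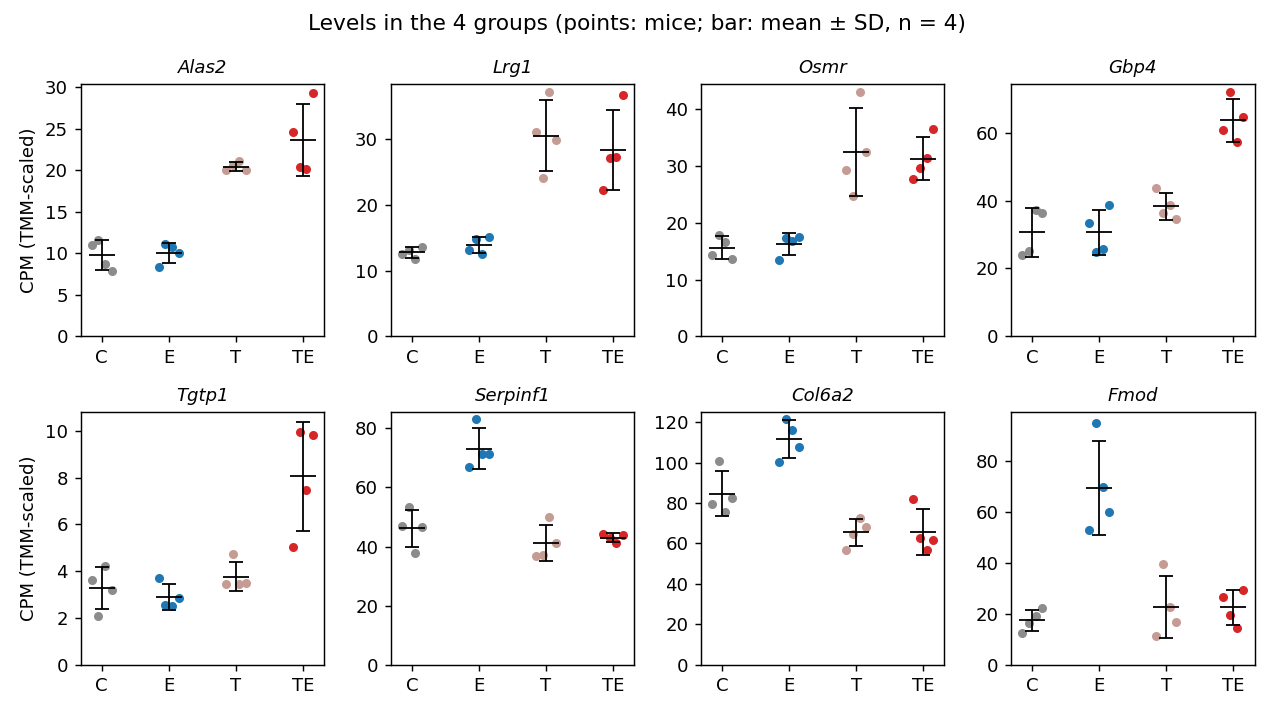
CPM of 8 genes called in TE vs E in the 4 mice of each group, with points for mice and black bars for the mean ± SD (n = 4). Alas2, Lrg1 and Osmr are high in T and TE, Gbp4 and Tgtp1 are high in TE, and Serpinf1, Col6a2 and Fmod are highest in E.

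The calls depended in part on single libraries. Of the 34 genes, 16 were called in all 16 fits that left out 1 library, and these were Alas2, Hbb-bs, Hbb-bt, Hba-a1, Hba-a2, Lrg1, Osmr, Gbp4, Igtp, Tgtp1, Serpinf1, Islr, Igfbp6, Col6a1, Col6a2 and Col5a3. The other 18 lost the call in at least 1 fit, and the highest adjusted p-value they reached was between 0.0522 for Timp2 and 0.217 for Gbp7. The genes nearest to the threshold on its other side were Cspg4 (-0.57, adjusted p = 0.0547), Gbp2b (0.52, 0.0574), Inmt (-1.29, 0.0583), Sema5a (-0.84, 0.0583) and Gfra1 (-0.62, 0.0631).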

How the data were processed

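PolyA RNA libraries were made from the gastrocnemius of 16 mice, with 4 mice per group. Groups and replicate numbers came from the labels, which give 1 batch. The submitters' processing notes name fastp 0.20.1, HISAT2 2.1.0, HTSeq 0.11.2 and GRCm39. The authors deposited raw counts per gene and FPKM values, which scale the counts for gene length and depth. Which annotation and strand option HTSeq was run with is not given in the sources used here, so genes that overlap or have near-identical copies are uncertain. The tables held 0 columns of other samples.

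Of the 35415 genes in the table, 23837 were detected, and filterByExpr kept 14749. The quasi-likelihood test of edgeR 4.0.16 in R 4.3.3 was fitted to all 16 libraries with TMM factors and 1 coefficient per group. The contrasts were TE minus E, T minus C and their difference, with E minus C and TE minus T beside them. The p-values were two-sided and adjusted by the Benjamini-Hochberg method over all tested genes. A gene was called at an adjusted p-value under 0.05, and a DEG also had a fold change above 2 or below 0.5. Distances used log2 CPM with a prior count of 2, and FPKM with a pseudocount of 1 served as an alternative. At these depths, 3 counts are about 0.08 CPM, and counts cover molecules and PCR copies alike. No pair of replicates within any of the 4 groups agreed within sampling noise. The test was checked on simulated counts.

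Members and gene lists were chosen with earlier results of these data known, so lists are described by counts and medians without a test. Named genes were the 15 higher and the 15 lower with the smallest adjusted p-value among those called, the 10 DEGs with the largest change, called genes of a list, the 4 most abundant members of a list described, the 5 nearest to the threshold, the 5 with the smallest interaction p-value, the 10 that ranked first by p-value in T vs C, S100a8, Gdf10 and Glycam1, and list markers. Further list members were named after their values were seen. Positions came from GENCODE on GRCm39 and promoters from RefSeq on GRCm38.p6. Alternatives used DESeq2 1.42.0, limma 3.58.1, other scaling and filters, and left out libraries. The counts of shared calls in fits of 2 groups alone were added after seeing the data.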

Additional observations from a re-analysis of the deposited data

Results flagged for a closer look

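In 13 of 114 groups of 4 mice examined, 1 mouse stood apart from the other 3 by the gap test of Dixon, which flags about 1 in 20 groups by chance. TE replicate 4 was set apart in 6 of them. It held 435.1 CPM of Hbb-bs, against 334.4 to 341.4 CPM in the other TE mice, and 95.8 CPM of Hbb-bt, against 48.2 to 50.2 CPM. Its erythroid and heme list summed to 1080 CPM, against 842.3 to 863.9 CPM. Its lymphocyte and lymph node list summed to 242.6 CPM, against 10.3 to 11.9 CPM, and its MHC class II list to 270.3 CPM, against 62.8 to 89.5 CPM. Glycam1 was at 27.4 CPM in this mouse and at 0 in the other TE mice. TE replicate 1 had the lowest sum of Schwann and myelin genes, 395.9 CPM against 533.0 to 554.8 CPM, and the highest sum of collagen genes, 1536 CPM against 1217 to 1258 CPM.

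Among the E mice, replicate 1 had the lowest Hba-a2, 12.9 CPM against 15.8 to 16.4 CPM, and the highest Ifitm3, 73.0 CPM against 59.1 to 61.4 CPM. E replicate 2 had the highest Kera, 9.06 CPM against 5.02 to 5.32 CPM. E replicate 3 had the highest Islr, 46.4 CPM against 36.2 to 37.57 CPM. E replicate 4 had the highest S100a8, 1.27 CPM against 0.20 to 0.38 CPM.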

How the results depend on the processing

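The 34 genes called in TE vs E became 179 with DESeq2 (57 higher and 122 lower), 61 with limma-voom (22 and 39), 69 without a filter on low counts (32 and 37), and 96 when edgeR was fitted to the E and TE libraries alone (21 and 75). DESeq2 on E and TE alone called 335 genes (93 and 242), and 1361 genes had an unadjusted p-value under 0.05. All 34 genes were among those called by DESeq2, limma-voom and the unfiltered fit, and 33 were among the 96. Leaving out TE replicate 4 and E replicate 1 together gave 22 genes (11 and 11). An alternative chosen after seeing the data, E and TE alone without TE replicate 4, gave 58 genes (16 and 42). Leaving out 1 library gave 18 genes (without E replicate 3) to 69 genes (without T replicate 3), and counts moved by over 1.5 times also without E replicate 2 (21), TE replicate 2 (19), TE replicate 3 (21) and C replicate 4 (22). The 11 DEGs became 58 with DESeq2, 79 with DESeq2 on E and TE alone, 27 without the filter, 21 with edgeR on E and TE alone, 7 without TE replicate 4 and E replicate 1, 203 with an unadjusted p-value, and 31 with a fold change threshold of 1.5. Leaving out 1 library gave 6 DEGs (without TE replicate 4) to 17 (without T replicate 4). Without E replicate 3, TE replicate 2, C replicate 2 or C replicate 4 there were 7. The interaction, with 0 genes in edgeR, had 20 with DESeq2, 1358 with an unadjusted p-value, and 0 to 1 when 1 library was left out. The separation of E and TE was 8.21 with unit variance and 2.29 on log2(FPKM + 1), and it ranged from 0.75 to 4.19 when 1 library was left out. DESeq2 size factors in edgeR gave the same 34 genes and the robust fit gave 35. The cause of these changes was not tested.

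The replicate numbers did not pair the mice, since the correlations of same-numbered E and TE deviations were -0.14, -0.021, 0.073 and -0.24. With the replicate number as a block, 28 genes were called (13 higher and 15 lower, 24 of them among the 34) and 9 were DEGs. The log2 fold change of Glycam1, 2.83, was -1.14 with limma-voom, -0.37 with the replicate block, -6.94 without TE replicate 4 and E replicate 1, and from -8.14 (without TE replicate 4) to 4.04 (without E replicate 1) when 1 library was left out. TE replicate 4 held all of its TE counts, so the size of the values without this mouse was not measured. Genes below about 1 CPM rest on few counts, which limits what can be called among them.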
